A study of Mus musculus with 4 samples.

Results

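The Kruppel-like factors analysed here were 10 genes, Klf2, Klf3, Klf4, Klf6, Klf7, Klf9, Klf10, Klf11, Klf13 and Klf16, chosen by their gene symbol out of 23282 entries in each count table. All 10 were listed on a single line each, and all 10 passed the filter on low counts, Klf10 through its dural counts alone. They were read in endothelial cells (ECs) of the dura mater, the outermost of the meninges, and in ECs of the brain parenchyma, taken from C57BL/6J mice aged 8 weeks with no injury, treatment or engineered allele named in the labels. There were 2 libraries for each tissue, called brain and dural samples below. Cells were sorted as CD31-positive, CD45-negative and TER-119-negative, and the brain cells alone went through a magnetic CD31 enrichment first, so that step cannot be told apart from the tissue. The labels do not say whether the libraries of a tissue came from separate mice, so that p-values measure only the spread between these samples, which may be technical.

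Kruppel-like factors are transcription factors that bind GC-rich and CACCC sequences through zinc fingers at their C-terminal end, and their N-terminal parts recruit coactivators or corepressors. KLF2 and KLF4 are best known in endothelium, where steady blood flow induces them through the MEKK3, MEK5 and ERK5 kinases and MEF2 factors. Both raise anti-coagulant and vasodilator genes and restrain leukocyte adhesion genes. Several family members are also early response genes that are transcribed quickly after wounding, growth factors or tissue handling.

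Library totals ranged from 13518973 to 16096203 counts. The tables are sparse and uneven between replicates: 48% of the 9347 genes tested fell to 7 counts or under somewhere among the 4 libraries, and the common biological coefficient of variation was 1.39. Dura mater replicate 2 held more symbols at 64 or more counts, 9835 against 6608 to 7281 in the others. Across genes, its Pearson correlation with brain replicates 1 and 2 was 0.576 and 0.573, above the 0.54 between the brain replicates. The dural replicates correlated at 0.672, and dura mater replicate 1 with the brain replicates at 0.407 and 0.415. The brain libraries were thus no more like each other than like dura mater replicate 2. The endothelial label held in each library: all 14 pan-endothelial markers were counted in all 4 libraries, and their summed level was 12400 and 14930 CPM in brain samples and 10560 and 13380 CPM in dural samples. CPM here is a count scaled to a common library size (counts per 1000000) after trimmed-mean (TMM) adjustment. Levels are compared between tissues and not between genes. In bulk libraries such as these, fewer cells of a type and less RNA per cell cannot be told apart.

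The family as a whole took a similar share of the counts in both tissues. The 10 genes together held 0.542% and 0.592% of counts in brain samples (95% Wilson intervals 0.539 to 0.546 and 0.588 to 0.596) and 0.487% and 0.594% in dural samples (0.483 to 0.491 and 0.590 to 0.598). The means were 0.567% ± 0.035 and 0.540% ± 0.0755 (SD, n = 2), and the ranges overlapped. These intervals cover counting error only. Of the 10 genes, 7 had at least 64 counts in every library, as did 45.6% of all genes tested, and Klf10, Klf11 and Klf16 did not.

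**Figure D1:**
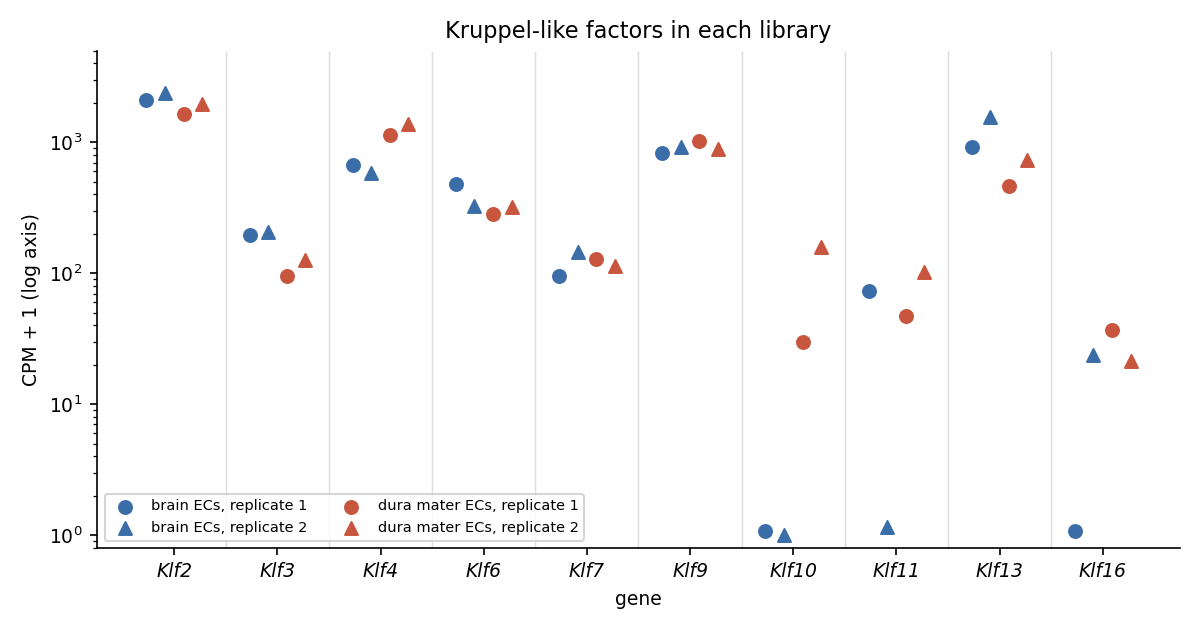
Level of each Kruppel-like factor in each library, as CPM + 1 on a log axis (blue, brain ECs; red, dura mater ECs; circles, replicate 1; triangles, replicate 2). Klf4 and Klf10 lay higher in both dura mater libraries, and Klf2, Klf3 and Klf13 lay lower, as did Klf6 by a narrow margin. Points at the floor mark libraries with 0 to 2 counts of Klf10, Klf11 or Klf16.

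No member passed the test over all genes. In edgeR's quasi-likelihood test 0 of the 10 had an adjusted p under 0.05, against 0.61% of all genes tested. At an unadjusted p under 0.05 there were 3, Klf4, Klf10 and Klf13, against 10% of all genes tested. limma-voom likewise called 0 (0.856% of all genes tested), the edgeR fit with the replicate number as a block called 0 (2.4%), and DESeq2 called 1, Klf10 (9.02% of the genes to which it gave an adjusted p). Without dura mater replicate 2, the library that stood apart, edgeR called 0 members (0.965% of all genes tested), and Klf13 was the 1 member at an unadjusted p under 0.05, where 7.7% of all genes tested in that fit stood. In that fit the log2 fold change was 0.85 for Klf4, 7.33 for Klf10 and −1.45 for Klf13, with the lone dural sample assumed to vary like the brain samples. In edgeR's fit to all 4 libraries, 6 members had a log2 fold change of dura mater over brain ECs above 0 and 4 below. The median was 0.07, beside a median of −0.01 over all genes tested, of which 49.8% were above 0. In TMM-scaled CPM the values of the groups did not overlap for 6 members, 2 higher and 4 lower in dural samples. Among the lower members, Klf6 was separated only narrowly, and by library totals alone it overlapped. Of all genes tested, 43.1% did not overlap (26.2% higher, 16.9% lower).

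Klf4, the flow-responsive factor that also opposes endothelial inflammation, showed a 2.01-fold difference between the means. Klf4 (chromosome 4, 55527143 to 55532466, minus strand, GRCm38) was at 669 and 584 CPM in brain samples and at 1144 and 1373 CPM in dural samples. Both dura mater libraries lay above both brain libraries, and replicates of a tissue differed by at most 1.20-fold. The means were 626 ± 60.3 and 1258 ± 162 CPM (SD, n = 2), and the log2 fold change was 1.01 (SE 0.31, 95% interval 0.25 to 1.77). The unadjusted p in edgeR's quasi-likelihood test was 0.0171, and over all genes the adjusted p was 0.391. Over 15 alternative settings the log2 fold change of Klf4 stayed between 0.85 and 1.14, and the adjusted p of these fits ranged from 0.113 to 0.799.

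Klf2, the closest relative of Klf4 in function in endothelium and a marker of flow, lay on the other side of 0. Klf2 (chromosome 8, 72319033 to 72321656, on the plus strand) was at 2116 and 2368 CPM in brain samples and at 1633 and 1971 CPM in dural samples. The groups did not overlap, but the lowest brain library and the highest dura mater library lay close together. The log2 fold change was −0.31 (SE 0.27, 95% interval −0.97 to 0.34, edgeR adjusted p 0.929).

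The promoters of Klf2 and Klf4 are shown because these are the endothelial flow factors of the family and their log2 fold changes had opposite signs. Neither gene passed in edgeR, and the 95% interval of Klf2 included 0. The sequences are from RefSeq on GRCm38.p6 and cover 250 bases before to 50 after the start site, on the strand of the gene. Capitals mark matches, on either strand, to CCACCC (the CACCC box), GGGCGG (the GC box), TGACG (the core of the cAMP response element), CACGTG (an E-box), and the MEF2 and CArG motifs by name.
Klf2 (chr8:72318812-72319111, plus strand): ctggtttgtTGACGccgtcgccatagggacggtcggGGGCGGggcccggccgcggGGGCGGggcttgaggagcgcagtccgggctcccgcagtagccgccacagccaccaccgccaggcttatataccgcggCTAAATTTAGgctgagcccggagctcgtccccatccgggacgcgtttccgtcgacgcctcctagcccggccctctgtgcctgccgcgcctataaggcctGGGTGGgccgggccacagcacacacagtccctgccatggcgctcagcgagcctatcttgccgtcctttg
Klf4 (chr4:55532426-55532725, minus strand): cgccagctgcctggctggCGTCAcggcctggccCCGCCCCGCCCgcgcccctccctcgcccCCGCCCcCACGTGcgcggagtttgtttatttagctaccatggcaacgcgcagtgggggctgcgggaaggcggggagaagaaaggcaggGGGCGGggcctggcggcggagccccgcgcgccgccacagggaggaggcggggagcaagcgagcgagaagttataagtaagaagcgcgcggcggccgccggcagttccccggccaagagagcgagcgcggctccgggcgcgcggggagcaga
The Klf2 window held a MEF2 match at −118 to −109, counted with the start site as 0, and the Klf4 window held none. A MEF2 match was present in 3.19% of the 32851 promoters of the same length. Both windows held a TGACG match, as did 20.8% of all promoters. The Klf4 window held 4 GC box matches, 2 of which share a base, and the Klf2 window held 2, where 35.7% of all promoters held at least 1. Of the 8 members with a promoter in the table, 0 held a CArG match (1.63% of all promoters), and Klf4, Klf6 and Klf11 held a CACGTG match (7.15%). A match is only a run of letters and does not show that a factor binds there.

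Within each library the ratio of Klf4 to Klf2 was higher in both dural samples, a measure that does not depend on how libraries are scaled. There were 0.316 and 0.246 counts of Klf4 per count of Klf2 in brain samples and 0.701 and 0.696 in dural samples. The ratio was thus 2.50-fold higher in dural samples, a log2 difference of 1.32 with SDs of 0.254 (brain) and 0.00649 (dura mater) on the log2 scale. Among 4265 other genes with at least 64 counts in every library, 23.5% had a larger difference, in either direction, when set against Klf2 in the same way. This ratio was chosen after its values were seen, and it was not tested: with 2 libraries a tissue, the smallest p (of both sides) an exact permutation test allows is 0.333.

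Set against Klf2, the other well-counted members fell on both sides. Klf9 stood at 0.388 and 0.389 counts per Klf2 count in brain samples and at 0.621 and 0.451 in dural samples. Klf3 stood at 0.0914 and 0.0874 in brain samples and at 0.0579 and 0.0639 in dural samples. Klf13 stood at 0.436 and 0.657 in brain samples and at 0.283 and 0.372 in dural samples. For these and Klf4 the tissues did not overlap, that is 4 of 6 ratios, 2 higher and 2 lower. Of the 4265 genes, 44.7% did not overlap (27.4% higher, 17.4% lower). Larger differences, in either direction, than those of Klf9, Klf3 and Klf13 were found in 68.2%, 61.9% and 51.8% of these genes. Their median log2 difference against Klf2 was 0.23. The ratios of Klf6 (0.226 and 0.137 against 0.172 and 0.162) and Klf7 (0.0445 and 0.0604 against 0.0781 and 0.0569) overlapped. A ratio shows unequal change of the genes in it, not which of them changed.

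**Figure D2:**
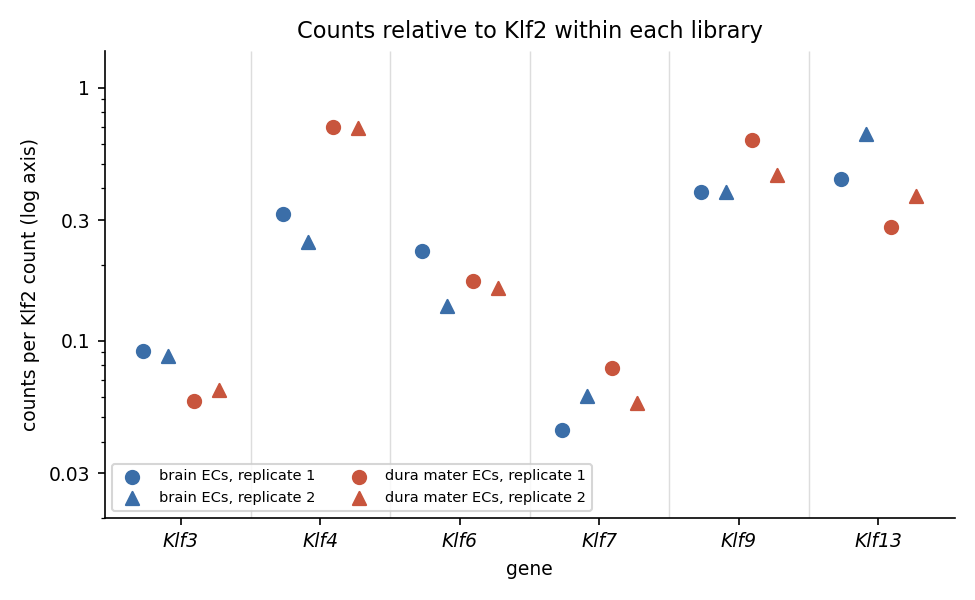
Counts per Klf2 count within each library (log axis) for the other 6 members with at least 64 counts in every library (blue, brain ECs; red, dura mater ECs; circles, replicate 1; triangles, replicate 2). Klf4 stood at 0.246 and 0.316 in brain samples against 0.696 and 0.701 in dural samples, while Klf6 and Klf7 overlapped between tissues.

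Klf6 and Klf7 are related activators of the family, Klf6 an injury-response gene that acts on TGF-beta receptors in vessels and Klf7 best known in neurons. Klf6 (chromosome 13, 5861482 to 5870394, on the plus strand) was at 478 and 323 CPM in brain samples and at 281 and 319 CPM in dural samples. The groups were separated only narrowly, and by library totals alone they overlapped. Brain replicate 2 had 4315 of 13812738 counts and dura mater replicate 2 had 5246 of 16096203. The brain replicates differed by 1.48-fold. Fitted over all genes, the log2 fold change was −0.42 (SE 0.41, 95% interval −1.42 to 0.58, edgeR adjusted p 0.968).

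Klf7 (chromosome 1, 64029447 to 64122282, minus strand) was at 94.2 and 143 CPM in brain samples and at 128 and 112 CPM in dural samples. The dura mater values lay between the brain values, and the log2 fold change was 0.01 (SE 0.66, 95% interval −1.58 to 1.61, edgeR adjusted p 1.00). Its sign changed under DESeq2 (−0.07), RLE scaling (−0.07), and no filter on low counts (−0.02), and without brain replicate 1 or dura mater replicate 1. An antisense long non-coding gene, Gm26649, covers 39.3% of the exonic bases of Klf7 in GENCODE M21, and the use of strand in the counting is not stated, so the Klf7 counts are uncertain.

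Klf3, a repressor that works through the CtBP corepressors, was lower in both dura mater libraries. Klf3 (chromosome 5, 64803388 to 64832901, on the plus strand) was at 193 and 207 CPM in brain samples and at 94.5 and 126 CPM in dural samples. The brain replicates agreed closely, and the means of 200 ± 9.64 and 110 ± 22.2 CPM (SD, n = 2) were 1.82-fold apart. The log2 fold change was −0.86 (SE 0.55, 95% interval −2.20 to 0.48, edgeR adjusted p 0.736) and lay between −1.10 and −0.72 over 15 alternatives. An antisense transcript, Gm20033, shares 3.59% of its exonic bases.

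Klf13, Klf9 and Klf16 belong to the group of short factors that can recruit the SIN3A corepressor. Klf13 (chromosome 7, 63886351 to 63938915, minus strand) lay lower in dural samples. Its means were the furthest apart in fold among members at 64 or more counts in every library. It was at 923 and 1556 CPM in brain samples and at 461 and 733 CPM in dural samples. The groups did not overlap, but replicates of a tissue differed by 1.69-fold and 1.59-fold, and the means of 1240 ± 447 and 597 ± 192 CPM (SD, n = 2) were 2.08-fold apart. The log2 fold change was −1.05 (SE 0.41, 95% interval −2.06 to −0.05) with an unadjusted p of 0.0424 and an edgeR adjusted p of 0.466. Without brain replicate 1, the lower of the brain libraries, the log2 fold change of Klf13 was −1.44, and without brain replicate 2 it was −0.70. The median log2 fold change of all genes was 1.03 and 0.95 in those fits. Over 15 alternatives the log2 fold change of Klf13 lay between −1.45 and −0.70.

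Klf9, a target of the glucocorticoid receptor and a clock output gene, was nearly level. Klf9 (chromosome 19, 23141226 to 23168134, on the plus strand) was at 821 and 922 CPM in brain samples and at 1013 and 890 CPM in dural samples. The groups overlapped, and the spread was small, with replicates 1.12-fold and 1.14-fold apart. Fitted over all genes, the log2 fold change was 0.13 (SE 0.31, 95% interval −0.61 to 0.87, edgeR adjusted p 1.00), and it was −0.11 without dura mater replicate 1. Klf16 (chromosome 10, 80567124 to 80577321, minus strand), a short GC-box factor, had 1 and 303 counts in brain samples and 484 and 336 in dural samples. The groups overlapped in CPM, since brain replicate 2 (22.7 CPM) lay above dura mater replicate 2 (20.4 CPM), and the log2 fold change of 1.29 had a 95% interval of −5.50 to 8.08. It was 0.27 without brain replicate 1 and 7.10 without brain replicate 2, so that 1 library decided its size.

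Klf10 and Klf11 are TGF-beta-inducible early genes that repress through SIN3A. Klf10 (chromosome 15, 38291463 to 38300706, minus strand) had 1 and 0 counts in brain samples and 392 and 2581 counts in dural samples. It was thus nearly absent from the brain libraries and present in both dura mater libraries, at 29.0 and 157 CPM, which themselves differed by 5.41-fold. Against a floor of 3 counts in each brain library it was at least 431-fold higher in the mean of the dural samples. This limit rests on dura mater replicate 2, since with either dural sample alone it was 134-fold (replicate 1) or 729-fold (replicate 2). It also takes the brain counts at face value, although Klf11 had 1054 counts in brain replicate 1 and 2 in brain replicate 2. The fitted log2 fold change was 9.07 (SE 2.09), with an unadjusted p of 0.00435 and an edgeR adjusted p of 0.213. Klf10 passed in DESeq2 (adjusted p 1.35e-05), in edgeR without a filter on low counts (adjusted p 0.00694, a fit that called 2.39% of all genes tested), and without brain replicate 1 or brain replicate 2 (fits that called 6.38% and 6.05%, with medians over all genes of 1.03 and 0.95). Over the alternatives the adjusted p ranged from 1.35e-05 to 0.799.

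Klf11 (chromosome 12, 24651274 to 24662789, plus strand) had 1054 and 2 counts in brain samples and 619 and 1668 counts in dural samples. The brain replicates thus differed more than the tissues, and brain replicate 1 (72.1 CPM) lay between the dura mater libraries (45.8 and 101 CPM). The log2 fold change of 1.02 had a 95% interval of −4.16 to 6.21. It was 7.95 without brain replicate 1 and −0.05 without brain replicate 2. In those fits the median over all genes was 1.03 and 0.95. The value is therefore set by which brain library is used.

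**Figure D3:**
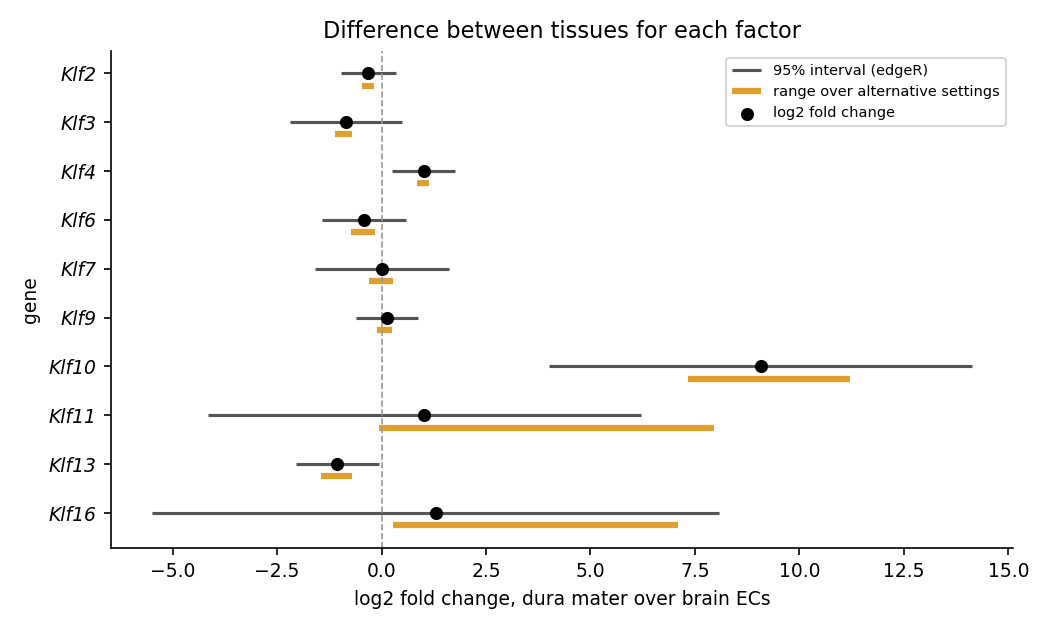
Log2 fold change of each member, dura mater over brain ECs, with its 95% interval from edgeR (grey) and the range over the alternative settings (orange). The interval of Klf4 runs from 0.25 to 1.77 and that of Klf13 from −2.06 to −0.05, while those of Klf10, Klf11 and Klf16, which had 0 to 2 counts in at least 1 library, are several log2 units wide.

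The remaining Klf genes were sparse. Of the other 7 Klf genes listed, Klf1, Klf8, Klf14 and Klf17 had 0 counts in every library, Klf12 had 228 counts in brain replicate 1 and 0 elsewhere, and only Klf5 and Klf15 were tested. Klf15, a metabolic and glucocorticoid-responsive factor, had 0 and 0 counts in brain samples and 256 and 183 in dural samples (edgeR adjusted p 0.466). Against a floor of 3 counts in each brain library, taken at face value, Klf15 was at least 69-fold higher. Klf5 had 0 and 429 counts against 247 and 48, so that the tissues overlapped. Of the related Sp factors, which bind the same GC boxes, 4 of 9 were tested and 0 passed in edgeR, with 0 at an unadjusted p under 0.05 and 1 called by DESeq2. Sp4 had 1 and 0 counts in brain samples and 458 and 266 in dural samples (edgeR adjusted p 0.466, DESeq2 adjusted p 0.0323). The ubiquitous Sp1 was at 293 and 149 CPM against 129 and 220 CPM, and Sp2 at 144 and 131 CPM against 43.8 and 69.5 CPM (edgeR adjusted p 1.00 and 0.678).

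Genes of the pathway that induces Klf2 and Klf4 were mostly without a resolved difference. Of 15 genes (kinases, MEF2 factors, the CCM complex that holds MEKK3 in check, class II histone deacetylases and flow sensors), 14 were tested and 0 passed in edgeR, with 1 at an unadjusted p under 0.05 and 1 called by DESeq2. Their median log2 fold change was 0.19, with 8 above and 6 below 0. Mef2c, a MEF2 factor through which ERK5 acts, was at 51.5 and 42.1 CPM in brain samples and at 287 and 258 CPM in dural samples. The tissues were far apart and the replicates close (log2 fold change 2.54, SE 0.57), yet the edgeR adjusted p was 0.194 and that of DESeq2 0.0266. Map3k3, which encodes MEKK3, had 91 and 571 counts against 1257 and 923, and Pdcd10 of the CCM complex had 18 and 1 against 108 and 302. Their adjusted p in edgeR was 0.953 and 0.852.

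Endothelial genes that KLF2 or KLF4 are known to raise lay mostly higher in dural samples, and so did genes they are known to lower. Of 14 genes in the first list, 12 were tested, 9 with a log2 fold change above 0 (median 2.48), and 0 passed in edgeR, with 4 at an unadjusted p under 0.05 and 3 called by DESeq2. Plpp3, a lipid phosphatase induced by flow and listed under its older symbol Ppap2b, was at 16.5 and 33.6 CPM in brain samples and at 406 and 463 CPM in dural samples. Its log2 fold change was 4.11 (SE 0.60), and its edgeR adjusted p of 0.0544 lay just outside the threshold. Adamts1, a protease, was at 231 and 115 CPM against 1479 and 946 CPM (edgeR adjusted p 0.0942).

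Thbd, which encodes the anticoagulant thrombomodulin and is a classical target of KLF2 and KLF4, showed a difference of the size seen for Klf4. Thbd was at 528 and 535 CPM in brain samples and at 1065 and 1171 CPM in dural samples (log2 fold change 1.07, SE 0.31, edgeR adjusted p 0.339). Nos3, the endothelial nitric oxide synthase and another such target, had 6038 and 2492 counts in brain samples and 2697 and 4854 in dural samples and overlapped between tissues (log2 fold change −0.28). Nos3 was named after its values were seen.

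Of 10 genes in the second list, 8 were tested and 7 lay above 0 (median 2.29). Icam1, the leukocyte adhesion molecule that KLF2 and KLF4 restrain, passed in edgeR and DESeq2. It rose from 48.3 and 65.7 CPM to 1872 and 971 CPM (log2 fold change 4.64, SE 0.50, edgeR adjusted p 0.0248). The other 7 did not pass, and 4 of the 8 had an unadjusted p under 0.05. DESeq2 called 4 of the 8. Both lists were drawn from general knowledge of these factors, and neither direction of change was measured against a change of Klf2 or Klf4 here.

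The corepressors that Kruppel-like factors recruit showed no common direction. Of 8 genes, 7 were tested, 3 lay above and 4 below 0, and 0 passed in edgeR, with 1 at an unadjusted p under 0.05 and 1 called by DESeq2. Hdac2, a histone deacetylase, had 3 and 5 counts in brain samples and 794 and 443 in dural samples (edgeR adjusted p 0.466). Sin3a had 406 and 347 counts against 579 and 1256, and Ctbp1, the partner of KLF3, had 4331 and 1258 against 2054 and 2180, so that Ctbp1 overlapped between tissues (edgeR adjusted p 1.00 for both).

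Signals that induce single members were read next. Among TGF-beta response genes, the context of Klf10 and Klf11, 6 of 7 tested lay above 0 (median 2.37), and 0 passed in edgeR, with 2 at an unadjusted p under 0.05 and 2 called by DESeq2. Tgif1, a corepressor of SMADs, was at 33.4 and 21.1 CPM in brain samples and at 398 and 112 CPM in dural samples, and Tgfbi had 7 and 13 counts against 1130 and 704. In edgeR their adjusted p was 0.281 and 0.466. Bambi, a decoy receptor that damps TGF-beta signalling, was at 21.5 and 22.4 CPM in the brain replicates and at 100.1 and 128 CPM in the dural ones (edgeR adjusted p 0.467). Among glucocorticoid response genes, the context of Klf9, 3 of 7 tested lay above and 4 below 0 (median −0.82), and 0 passed in edgeR, with 3 at an unadjusted p under 0.05 and 2 called by DESeq2. Tsc22d3, a standard glucocorticoid target, was at 945 and 1181 CPM in brain samples and at 542 and 355 CPM in dural samples, whereas Sgk1 was at 86.6 and 75.3 CPM against 290 and 402 CPM (edgeR adjusted p 0.357 and 0.235). Dusp1, a phosphatase that is also on the dissociation list, was at 351 and 236 against 661 and 919 CPM (edgeR adjusted p 0.328). The members of this list thus lay on both sides of 0, and Klf9 itself was near 0.

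Genes that are switched on by tissue dissociation are given beside the Klf values because several family members are early response genes. Of 29 such genes, 28 were tested and 28 lay above 0 (median 2.48, from 0.30 for Hspa1b to 10.03 for Egr2). Egr2 had 0 and 0 counts in brain samples and 1068 and 3459 in dural samples, so that its value depends on the prior count. In edgeR 6 passed, all higher in dural samples, and 22 did not, with 19 at an unadjusted p under 0.05 and 19 called by DESeq2. The 6 were Fosb, Junb, Egr1, Ier3, Zfp36 and Nfkbiz. Fosb was at 116 and 223 CPM in brain samples and at 2513 and 3873 CPM in dural samples, and Junb at 1487 and 1248 against 6406 and 6268 CPM. The list held 1.30% ± 0.0296 of counts in brain samples and 4.73% ± 0.00356 in dural samples (SD, n = 2). Of the Kruppel-like factors, 6 lay above 0, Klf4 and Klf10 among them, and 4 below, Klf2, Klf3, Klf6 and Klf13. None passed in edgeR. The part of dissociation in the Klf values was not tested.

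**Figure D4:**
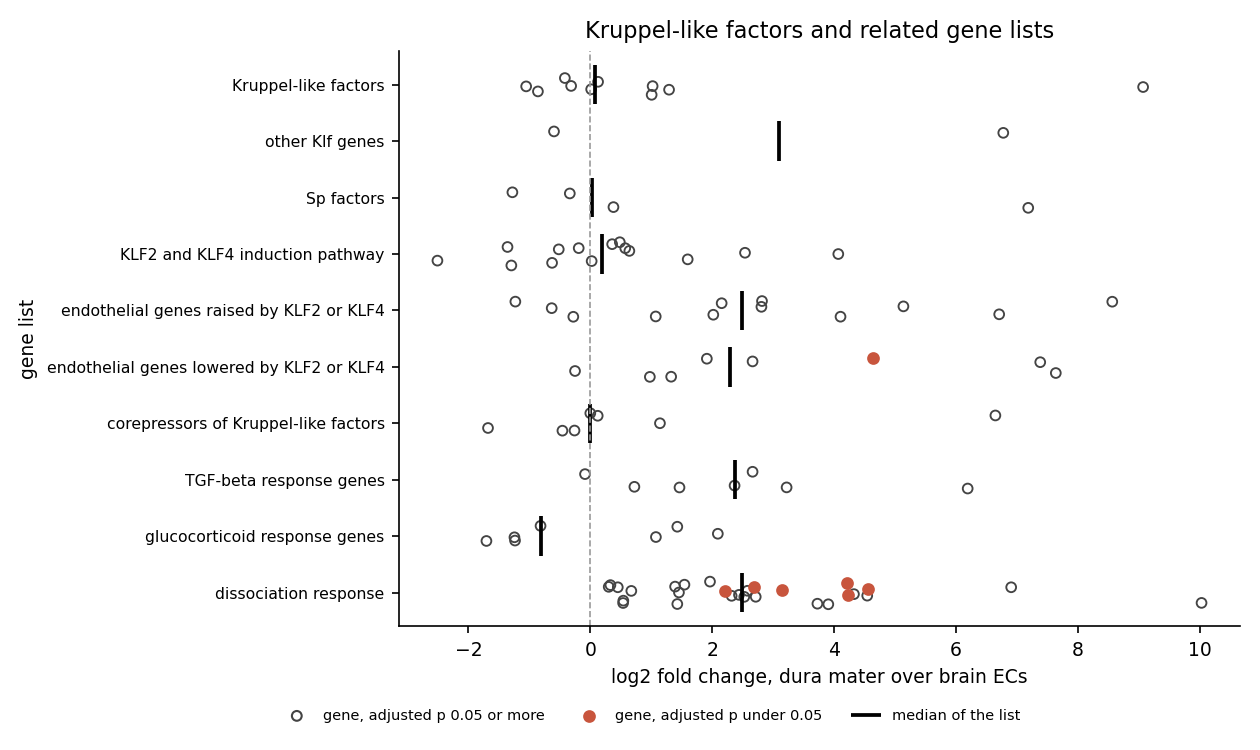
Log2 fold change, dura mater over brain ECs, of each tested gene in the lists (open circles, adjusted p 0.05 or more; red, adjusted p under 0.05 in edgeR; black bars, medians). The Kruppel-like factors centre near 0 with Klf10 far to the right, while all 28 dissociation response genes lie above 0.

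Markers of other cells also differed in level. Of the erythroid markers, 5 of 8 were counted, the summed level was 17850 and 25470 CPM in brain samples and 1483 and 755 CPM in dural samples, and the erythroid factor Klf1 was at 0 in every library. The summed fibroblast level was 2517 and 2250 CPM against 11230 and 11180 CPM, of which Mgp, also made by endothelium, was the main part. All 5 fibroblast markers tested of 9 lay above 0, and 1, Mgp, passed in edgeR and 4 in DESeq2. The collagen genes Col1a1 (20 and 42 counts against 759 and 1237), Col1a2 (4 and 31 against 1135 and 1913) and Col3a1 (63 and 579 against 1443 and 962) and the proteoglycan gene Dcn (16 and 15 against 1184 and 1664) were all higher in both dural samples, while Pdgfra and Lum had at most 4 counts in any library. Mural markers summed to 688 and 1167 against 1155 and 691 CPM, with 7 of 10 tested above 0 and 3 below. Of these, 0 passed in edgeR and 1 in DESeq2, Kcnj8 (0 and 0 counts against 468 and 410, DESeq2 adjusted p 0.00744). Acta2, a large part of the sum, had 4979 and 10644 counts against 7580 and 3663. Leukocyte markers summed to 1.44 and 51.9 against 52.0 and 29.3 CPM, with 2 of 3 tested above 0. Cd68, of macrophages, had 4 and 3 counts against 550 and 441 (DESeq2 adjusted p 0.0296), Csf1r had 646 counts in brain replicate 2 and 4 to 28 elsewhere, and Ptprc had 1 to 4. Astrocyte, oligodendrocyte and neuronal markers summed to 0.889 to 101 CPM in brain samples and 21.5 to 415 CPM in dural samples, with 3 of 4, 2 of 3 and 3 of 3 tested above 0. Of these, Slc1a3 of astrocytes had 1 and 1 counts against 915 and 74, and Map2 of neurons 0 and 3 against 1196 and 255, while Aqp4 and Mag were at 0 in every library. The part of such cells in the Klf values was not tested.

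Genes with the pattern most like that of Klf2 and Klf4 were found by the distance between log2(CPM + 1) values centred on their mean over the 4 libraries. Nearest to Klf2 were Rps19, a ribosomal protein gene (distance 0.0515), Ctdsp2, a phosphatase gene (0.0993), and Ctnnb1, which encodes beta-catenin (0.121). In all there were 63 genes within 0.3 of Klf2. Nearest to Klf4 were Sptlc1, of sphingolipid synthesis (0.150), Apoe, the apolipoprotein (0.162), and Cdca4 (0.168), with 25 genes within 0.3. With only 4 libraries, this closeness is a description of these libraries.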

How the data were processed

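RNA of sorted ECs was sequenced with a 3′-end kit (QuantSeq) in 2 brain and 2 dura mater libraries. The authors deposited raw counts per gene symbol for each library, unscaled. The study's methods name TopHat and cufflinks, and the submitters' processing notes name mm10, Bowtie2 and edgeR. How reads were counted, by which annotation and with which strand setting is not given in the sources used here.

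Groups came from the sample titles. Counts were tested with edgeR 4.0.16 (quasi-likelihood, older dispersion estimate) in R 4.3.3, with TMM scaling, filterByExpr, tissue as the only term, a prior count of 2 and Benjamini-Hochberg adjustment over 9347 genes. It stands in for cufflinks, which needs alignments. The SE is the size of the log2 fold change over the square root of F, and 95% intervals use the t quantile at the fit's degrees of freedom. Alternatives were DESeq2 1.42.0, limma-voom (limma 3.58.1), other scalings, filters, thinning to the smallest library, a prior count of 0.5, a replicate block and each library left out. Scripts were tested on simulated data. Positions are from GENCODE M21 (GRCm38, the build mm10 refers to).

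The members and gene lists were chosen with earlier results of these data known. Named genes were the 10 members, list genes past an adjusted p of 0.05 or else up to 3 with the smallest p per list, and the 3 genes nearest to Klf2 and Klf4. Genes named outside this rule were chosen after their values were seen, as were Klf12, Nos3 and the cell markers. Promoters were found for 8 of the 10 members, and protein sequences were not used here.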

Additional observations from a re-analysis of the deposited data

How the results depend on the processing

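Of 147 refits of single members, 134 kept their direction and side of the threshold. Another 6 passed where the edgeR test did not: Klf10 in 4 (DESeq2, no filter, without either brain library), and Klf11 and Klf13 without brain replicate 1. The sign changed in 7. For Klf7 it was −0.07 in DESeq2 (−0.0676), −0.07 under RLE scaling (−0.0675), −0.020 with no filter, and −0.30 to 0.29 over the libraries left out. For Klf9 it ranged from −0.11 to 0.20, and for Klf11 from −0.0496 to 7.95, over the libraries left out. The causes were not tested.

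The count of members called was 0 in the main test, 1 in DESeq2, 1 with no filter, and 0 to 3 with each library left out, 3 being without brain replicate 1. Over all genes it was 57 (40 higher, 17 lower), with 40 higher and 40 lower in limma-voom, 75 and 66 with at least 10 counts in every library, and 43 and 37 or 43 and 54 without dura mater replicate 1 or 2. It was 810 in DESeq2, 305 with the newer edgeR dispersion estimate, 326 with no filter, 141 with at least 10 counts in every library, 224 with the replicate block, and 80 to 740 with each library left out. For the related lists, with 87 genes tested, it was 7 (6 dissociation response genes and Icam1), against 33 in DESeq2, 12 in limma-voom, 23 with the newer dispersion estimate, 21 with no filter, 18 with at least 10 counts in every library, 20 with the replicate block, and 9 to 30 with each library left out. Where a library is left out, the lone sample is assumed to vary like the other tissue.

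The labels do not say what the replicate numbers share. The deviations of brain and dura mater replicate 1 from their tissue means had a correlation of −0.0153 across genes. With the replicate block 0 members passed. The median log2 fold change of all genes was −0.01 in the main test, −0.10 under RLE scaling, 0.13 under upper-quartile scaling, 0.28 in limma-voom, 0.27 with no filter and 0.25 with the replicate block. It was 1.03 and 0.95 without brain replicate 1 (where Klf10, Klf11 and Klf13 passed) or 2 (where Klf10 passed), and 0.14 and −0.19 without dura mater replicate 1 or 2. Klf10, Klf11 and Klf16 could not be tested with at least 10 counts in every library. Each of these had 0 to 2 counts in at least 1 brain library, so that a low level there could not be told from none. Klf11 had 1054 and 2 counts in brain replicates 1 and 2, and Klf16 had 1 and 303. A count near 0 in 1 library therefore need not mean a low level in that tissue. Whether deeper libraries would resolve the other 7 was not tested.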
